A study of Mus musculus with 2 samples.

Results

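The genes described are 8 genes of gastric-type and mucin differentiation: Muc1, Anxa10, Agr2, Tff1, Tff2, Muc5ac, Cldn18 and Vsig1. They were chosen by name, and all 8 are among the 33696 features of the deposited matrix. They were read in KPCY 6419c5, a mouse pancreatic ductal adenocarcinoma line. KPCY tumours arise in a mouse model that uses Pdx1-Cre, active in pancreatic epithelium, and carries a yellow fluorescent reporter. Per the labels, cells were transfected with an adenine base editor built on Cas12a and sorted singly. Each clone therefore grew from 1 cell, and clones 76 and 84 were pooled at a ratio of 1 to 1 when editing had run for 19 days. No unedited or untransfected cells, and no cells of a library of 5 clones, were analysed here.

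The matrix holds 22178 barcodes and 116505698 unique molecular identifiers (UMIs, tags that count captured transcripts). A barcode was kept if it had 2000 UMIs and 1000 genes or more and no more than 15% of its UMIs in mitochondrial genes, which left 21361 cells. Cells were classed by marker sums and are called A and B cells, names that have nothing to do with lymphocytes. The A sum adds the UMIs of Pde10a, Plcb1, Galnt18, Arhgap15 and Ceacam1, and the B sum those of S100a7a, Rgs20, Hs6st2, Ccbe1, Ctse and Mal. A cell was A or B where its own sum was at least 2 and at least 3 times the other. This gave 7816 A cells (36.6%) with a median of 4699.5 UMIs and 8936 B cells (41.8%) with a median of 5440.5 UMIs. The other 4609 cells met neither rule. Cells were not assigned to clones, so A and B are classes of cells and not the labelled clones. With 1 library there is no replicate. Levels are CPM, a depth-scaled unit computed from the summed UMIs of a class, with exact 95% Poisson intervals. Shares of cells have exact Clopper-Pearson intervals. Both cover counting error only.

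The surface of the stomach is lined by foveolar cells, which secrete the gel-forming mucin Muc5ac together with the trefoil peptide Tff1, while deeper mucous cells make Tff2. Muc1 is a mucin anchored in the apical membrane, and Cldn18 and Vsig1 are proteins of epithelial cell contacts with strong expression in the stomach. Agr2 is a disulfide isomerase of the endoplasmic reticulum that takes part in mucin folding, and Anxa10 is an annexin found in gastric epithelium. The normal pancreas makes little of most of these proteins, while precursor lesions and well-differentiated ductal tumours often express them. Several of the genes are used as markers of the classical subtype of pancreatic cancer, which is set against a basal-like subtype with squamous keratins.

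Promoter windows in RefSeq on GRCm38.p6 were found for 5 of the 8 genes. The 250 bases upstream of the start are shown for Muc1, Anxa10 and Vsig1, the members with the most UMIs, since they were high in the same class of cells. The counts were made on GRCm39, and these coordinates are of the older build. The Muc1 window lies at chr3:89228806-89229055 on the plus strand, the Anxa10 window at chr8:62123194-62123443 on the minus strand and the Vsig1 window at chrX:140907358-140907607 on the plus strand. Capitals mark matches to 7 motifs searched on both strands.
Muc1: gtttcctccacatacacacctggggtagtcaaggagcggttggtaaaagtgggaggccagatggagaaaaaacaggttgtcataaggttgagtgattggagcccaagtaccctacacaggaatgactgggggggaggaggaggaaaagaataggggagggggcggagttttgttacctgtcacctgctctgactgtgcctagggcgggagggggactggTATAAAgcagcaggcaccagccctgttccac
Anxa10: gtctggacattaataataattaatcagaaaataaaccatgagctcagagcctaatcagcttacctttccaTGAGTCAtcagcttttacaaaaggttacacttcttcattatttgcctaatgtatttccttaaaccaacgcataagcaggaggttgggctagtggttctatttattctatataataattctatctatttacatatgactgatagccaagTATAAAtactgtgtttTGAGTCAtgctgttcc
Vsig1: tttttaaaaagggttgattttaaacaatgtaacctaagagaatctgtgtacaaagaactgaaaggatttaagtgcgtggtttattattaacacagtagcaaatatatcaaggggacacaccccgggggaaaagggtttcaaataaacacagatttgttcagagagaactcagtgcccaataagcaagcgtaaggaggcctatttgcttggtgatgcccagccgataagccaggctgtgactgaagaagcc
The AP-1 motif (TGANTCA) occurred at 2 places in the Anxa10 window and in neither of the other windows. It occurs in 6.75% of 32851 windows of the same length. The TATA box, searched as TATAAA, occurred once in the Muc1 and once in the Anxa10 window, against 12.4% of all windows with a match. Motifs of FOXA (TGTTTNC, 17.8% of windows), GATA factors (AGATAA, 9.99%), HNF4 (AAAGTCCA, 1.01%), KLF (CCNCACCC, 14.9%) and CDX (TTTATNG, 9.81%) had no match in these 3 windows. Among the windows not shown, a Cldn18 window had matches to FOXA, GATA and KLF, and a further Cldn18 window to FOXA only. The Agr2 window had matches to FOXA and CDX. The CDX letters can overlap a TATA box. The 3 windows shown therefore shared no motif among those searched, and a match or its absence in these letters says nothing of what binds there.

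Muc1, Vsig1, Anxa10 and Tff1 were far higher in B than in A cells, by 9.40-fold to 134-fold. Cldn18 and Muc5ac had the same direction at very low levels, Tff2 was close to absent, and Agr2, also very low, was higher in A than in B cells. Of the 8 genes, 4 reached 10 CPM in either class, and all 4 were at least 2-fold higher in B cells. Among all 8800 genes with at least 10 CPM in either, 7.26% were at least 2-fold higher in B cells and 10.3% at least 2-fold higher in A cells. The median log2 ratio of B over A was 4.23 for these 4 members and -0.17 for the 8800 genes. Anxa10 and Tff1 reached 10 CPM only through their level in B cells, so their place among these 4 required a difference. The place of Tff1 also rested on few cells: without the 10 B cells with the most Tff1 UMIs, out of 8936, it was 8.69 CPM (7.91 to 9.52) in B cells, under the minimum. That left 3 genes, all at least 2-fold higher in B cells, with a median log2 ratio of 3.88.

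**Figure D1:**
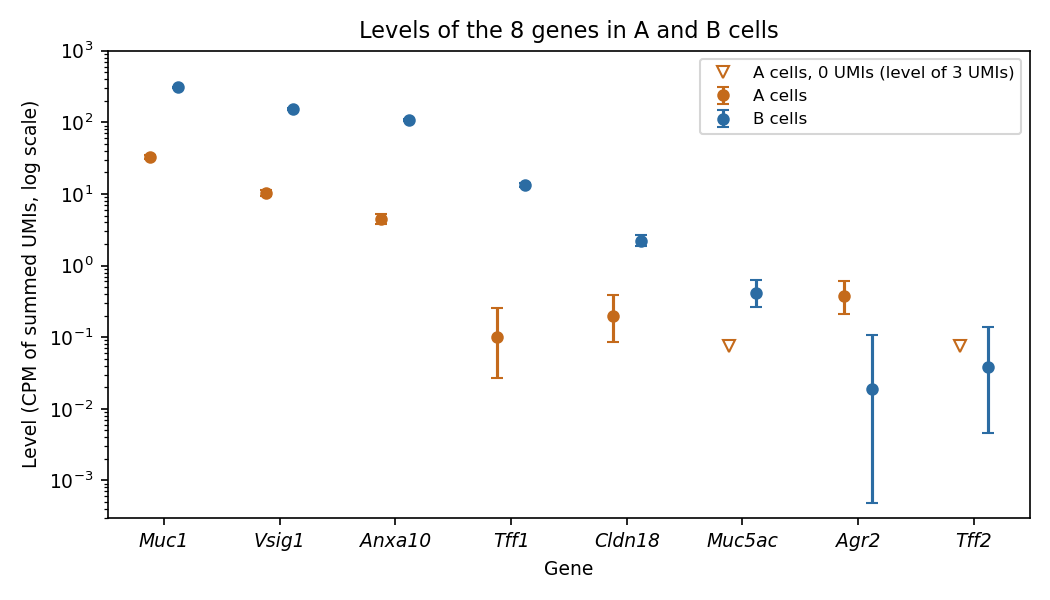
Level of each gene in A cells (orange) and B cells (blue) on a log axis, as CPM of summed UMIs with 95% Poisson intervals. Open triangles stand for 0 UMIs and are drawn at the level that 3 UMIs would give. Muc1 has the highest level in either class. Agr2 lies higher in A cells, and the A marker of Tff2 lies above its B marker only because 0 UMIs are drawn at 3.

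Muc1, the transmembrane mucin, had the highest level of the 8 genes in both classes. It gave 16240 UMIs in B cells, or 307.7 CPM (interval 303 to 312.5), and 1319 UMIs in A cells, or 32.8 CPM (31.01 to 34.6). The ratio was 9.40-fold (8.88 to 9.95), and ranked 146 of 8800 from the top. A UMI was seen in 78.2% of B cells and 13.7% of A cells. After each cell was thinned to 3000 UMIs these shares were 57.9% and 8.53%, so the classes also differed at equal depth. By level in B cells Muc1 ranked 477 of 33696 features.

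Vsig1, the junctional glycoprotein, followed with 8122 UMIs in B cells, or 153.9 CPM (150.6 to 157.3). In A cells it gave 421 UMIs, or 10.5 CPM (9.48 to 11.5), a 14.7-fold ratio (13.3 to 16.3). It was seen in 53.1% of B cells and 4.52% of A cells, or 35.3% and 2.42% after thinning. Vsig1 and Muc1 are the members that reach 10 CPM in A cells as well.

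Anxa10, the gastric annexin, gave 5665 UMIs in B cells, or 107.35 CPM (104.6 to 110.2). In A cells it gave 180 UMIs, or 4.47 CPM (3.84 to 5.17), so that its ratio was 24.0-fold (20.7 to 28.0). On the log2 scale this was 4.59, and 5.25 under a stricter class rule of 5 UMIs and 10 times the other sum. It was seen in 42.0% of B cells and 2.14% of A cells, or 26.4% and 1.202% after thinning. The order of level in B cells was Muc1, Vsig1, Anxa10 and Tff1, and the intervals of neighbours in this order did not overlap. Counts at the 3′ end take 1 tag per transcript, so this order is not scaled by length.

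Tff1, the trefoil peptide of the gastric surface, had the highest ratio of the 4 genes that reached 10 CPM. It gave 702 UMIs in B cells and 4 in A cells, or 13.3 CPM (12.3 to 14.3) against 0.0993 CPM (0.0271 to 0.254). The ratio was 134-fold with a wide interval (52.1 to 493), set by the 4 UMIs. On the log2 scale it was 7.07, and 6.45 without the 10 B cells with the most Tff1 UMIs. It was 8.41 under a strict cell filter (5000 UMIs, 2000 genes and a 10% mitochondrial limit), where A cells held 1 Tff1 UMI. Tff1 UMIs were found in 139 B cells (1.56%) and 4 A cells (0.0512%), or 1.17% and 0.0405% after thinning. Vsig1 in A cells, at 10.5 CPM a little under the 13.3 CPM of Tff1 in B cells, was seen in 4.52% of cells.

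Cldn18, which encodes a tight-junction protein with lung-type and stomach-type forms, gave 118 UMIs in B cells and 8 in A cells. Its levels were 2.24 CPM (1.85 to 2.68) and 0.199 CPM (0.0858 to 0.391), a ratio of 11.3-fold (5.53 to 26.7). On the log2 scale this was 3.49, and 2.82 under the strict cell filter. It was 4.42 where the other sum had to be 0, with 4 Cldn18 UMIs in A cells. It was seen in 1.29% of B cells and never at more than 2 UMIs. Counts at the 3′ end do not separate its forms. Muc5ac, the gel-forming mucin of foveolar cells, gave 22 UMIs in 15 B cells and 0 in A cells. Its level in B cells was 5.60-fold that of 3 UMIs over all A cells, leaving out the counting error of the 22 UMIs. On the log2 scale this was 2.48, and 1.35 under the strict cell filter, where B cells held 13 UMIs. The 0 of 7816 A cells allows a share of cells with a UMI of up to 0.0384% at 3 counts, or 0.0472% by the exact interval, and does not limit the share of cells that express the gene. Tff2 gave 2 UMIs in B cells and 0 in A cells, so no ratio is given.

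Agr2, the mucin-folding isomerase, went the other way. It gave 15 UMIs in 12 A cells and 1 UMI in B cells, a level 19.7-fold higher in A cells, with a wide interval (3.02 to 827) set by that 1 UMI. At 0.372 CPM (0.208 to 0.614) in A cells it stayed far under the 10 CPM minimum. Cells of neither class held 5 Agr2 UMIs in 5 cells, or 0.222 CPM (0.0721 to 0.518), an interval that overlaps that of A cells. With Ctse left out of the B sum, B cells held 0 Agr2 UMIs and A cells 15. Under the stricter class rule, A cells held 3 and B cells 0, so no ratio could be given. Muc5ac and Agr2 were thus both near the limit of detection in these cells.

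**Figure D2:**
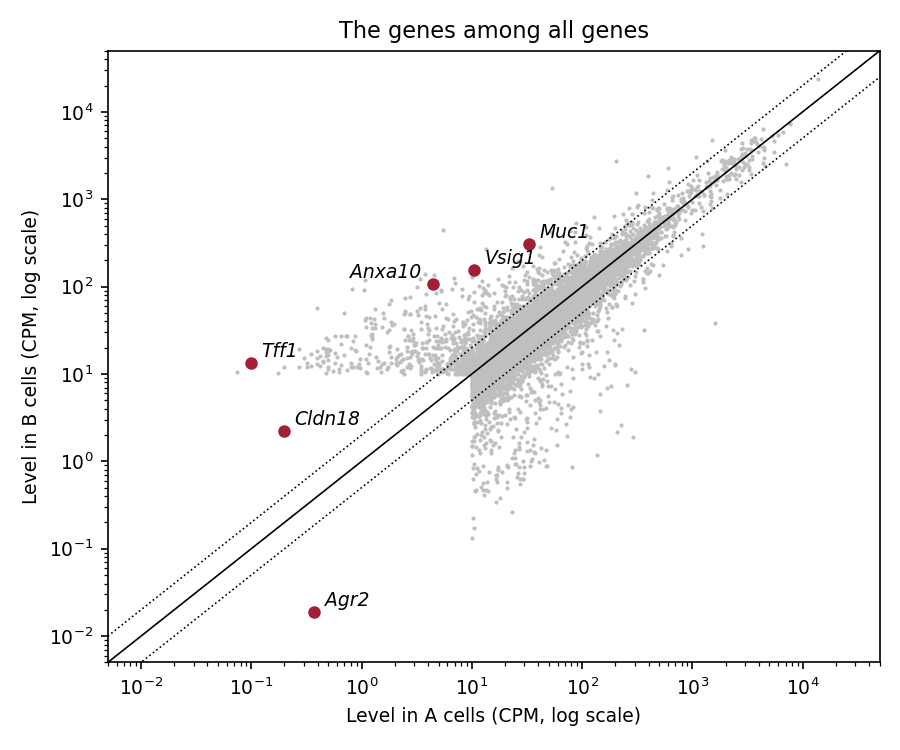
Level in A cells against level in B cells on log axes for genes with at least 10 CPM in either class (grey) and for 6 of the 8 genes (red). The solid line marks equal levels and the dotted lines 2-fold. Tff1, Anxa10, Vsig1 and Muc1 lie at the upper left edge of the cloud, and Cldn18 and Agr2 lie below the minimum in both classes.

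The level left in A cells was set beside that of marker genes of the B sum. Each B-rule gene was left out in turn and the cells were classed again by the rest. These 6 genes then had in A cells between 1.89% and 4.50% of their level in B cells, and were seen in 0.447% to 4.95% of A cells. Median depth was 4699.5 UMIs in A and 5440.5 in B cells. For Muc1 the level in A cells was 10.6% of that in B cells and for Vsig1 6.79%, both above that range. For Anxa10 it was 4.16%, inside the range, and for Tff1 0.747%, below it. A share at this background is not read as expression, so Anxa10 in A cells was not told from background. Only Rgs20, at 4.50%, lay above Anxa10, and the next was S100a7a at 3.81%. The shares of the B-rule genes come from the redrawn classes and those of the members from the main classes. Whether a B-rule gene is expressed in A cells was not tested.

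In the 7377 A cells with a B sum of 0, Muc1 stood at 30.3 CPM (28.6 to 32.1), Vsig1 at 8.40 CPM (7.49 to 9.38) and Anxa10 at 3.48 CPM (2.90 to 4.13). The 439 A cells with a B sum of 1 or more had 64.4 CPM of Muc1, 37.2 CPM of Vsig1 and 17.4 CPM of Anxa10, at a median depth of 5973 UMIs. All 3 genes were thus lower in the A cells without a B-rule UMI, and the part of mixed droplets or free RNA in their level there was not tested. Ctse, one of the B-rule genes, is itself a protease of gastric epithelium. Without it in the sum the log2 ratio was 3.20 for Muc1, 3.83 for Vsig1, 4.50 for Anxa10 and 7.11 for Tff1. Doublets, barcodes that hold 2 cells, were marked with Scrublet in 146 A and 208 B cells. Without them the log2 ratio was 3.40 for Muc1, 4.29 for Vsig1 and 5.03 for Anxa10, against 3.23, 3.88 and 4.59 with them.

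The cells next to the class limits differed little in these genes. B cells with a sum of exactly 2 and an A sum of 0 had 285 CPM of Muc1, 174 CPM of Vsig1 and 108 CPM of Anxa10. Unclassed cells with a B sum of 1 and an A sum of 0 had 271, 183 and 95.3 CPM. On the A side, Muc1 was 26.8 CPM just inside and 30.7 CPM just outside the limit. The 1339 cells with both sums at 0 had 102 CPM of Muc1, a level between the classes.

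Within B cells, Muc1, Vsig1 and Anxa10 were spread broadly while Tff1 was packed into few cells. If every B cell had the mean level at its own depth, Muc1 would be seen in 81.2% of B cells, against 78.2% observed. Vsig1 would be seen in 58.0% against 53.1%, and Anxa10 in 45.8% against 42.0%. Cldn18, rare as it was, was seen in 1.29% against 1.31%. Muc5ac, with 22 UMIs in B cells, was seen in 0.168% against 0.246%. Tff1 would be seen in 7.52% of B cells against 1.56% observed. In cells thinned to 3000 UMIs the variance of the UMI count was 1.10 times its mean for Muc1, 1.17 for Anxa10, 1.19 for Vsig1 and 7.72 for Tff1. For Muc5ac it was 1.80, with a UMI in 7 thinned cells.

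**Figure D3:**
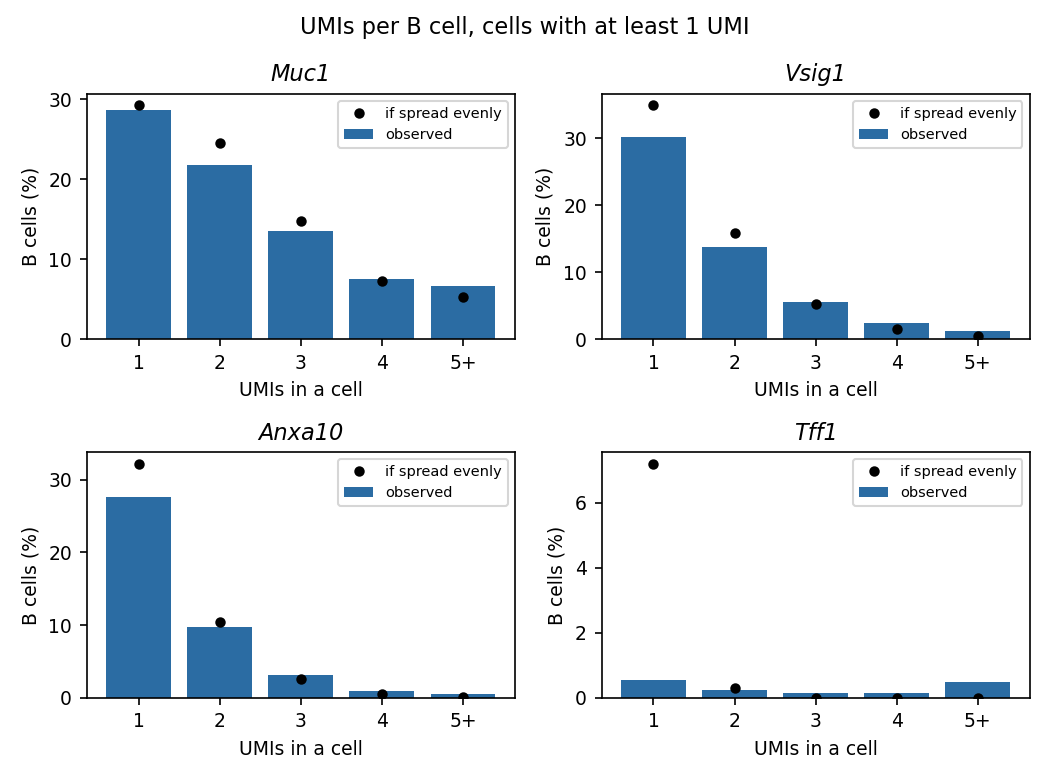
Share of B cells with 1, 2, 3, 4 or at least 5 UMIs of Muc1, Vsig1, Anxa10 and Tff1 (bars), and the share if every B cell had the mean level at its own depth (points). Bars and points lie close together for Muc1, while Tff1 has 0.537% of cells at 1 UMI where an even spread would give 7.20%, and 0.481% at 5 or more.

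A small set of B cells carried most Tff1. The 70 B cells with 3 or more Tff1 UMIs (0.783%) held 612 of the 702 UMIs, or 87.2%, and the 10 highest cells held 34.8%. The highest cell had 45 Tff1 UMIs and the next had 41. This limit of 3 UMIs was chosen after the values were seen. These 70 cells had a median depth of 6431.5 UMIs, against 5429 in the 8797 B cells with no Tff1 UMI, and 1 of them was marked as a doublet. Cells of neither class held 77 Tff1 UMIs in 22 cells.

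The widely detected members differed by at most 1.24-fold between the Tff1-rich cells and the B cells without Tff1. Muc1 was 1.21-fold higher (1.04 to 1.40), Anxa10 1.24-fold (0.958 to 1.59) and Vsig1 1.01-fold (0.797 to 1.27). Neither Cldn18 nor Muc5ac had a UMI in the 70 cells, which hold too few UMIs for genes this rare. Psca, a surface antigen of gastric and prostate epithelium, was 100.5 CPM against 14.0 CPM, or 7.19-fold higher (5.27 to 9.61). Sprr1a, a cornified-envelope protein of squamous cells, was 472 CPM against 119 CPM, or 3.95-fold higher (3.45 to 4.51). Krt14, a basal keratin, was 2.44-fold higher (1.93 to 3.04). Areg, which encodes the growth factor amphiregulin, was 0.947-fold (0.818 to 1.09). Cells of this set were chosen on Tff1 alone, and these folds are descriptions.

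Joint detection was read in cells thinned to 3000 UMIs, as the number of cells with a UMI of both genes over the number that the product of their shares gives. Among B cells, Muc1 and Anxa10 were seen together in 1397 of 8827 cells against 1350 from their shares, a ratio of 1.03 (0.981 to 1.09). Muc1 and Vsig1 were seen together in 1852 cells against 1805, a ratio of 1.03 (0.980 to 1.07). Anxa10 and Vsig1 were seen together in 942 cells against 823, a ratio of 1.14 (1.07 to 1.22). None of these 3 pairs reached 1.2, a ratio that 1.74% of 20604990 pairs of genes seen in at least 5% of B cells reached. Among 6419 partners, Vsig1 ranked 50 for Anxa10, and Anxa10 ranked 28 for Vsig1. Without marked doublets the highest ratio of the 3 pairs was 1.07.

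Cells with all 3 genes and cells with none were both somewhat more frequent than independent shares give. All 3 were seen in 6.45% of thinned B cells against 5.40% from independent shares, and none of them in 21.4% against 20.0%. Exactly 1 was seen in 44.0% and exactly 2 in 28.1%. Without thinning, 20.3% of B cells had all 3 and 7.68% had none. In thinned A cells only Muc1 was seen in at least 5%, so no pair could be read by this rule there. The share of all pairs past 1.2 was 2.37% in A cells. Below that limit, Muc1 and Vsig1 were seen together in 27 A cells against 15.3, a ratio of 1.77 (1.16 to 2.57), and Muc1 and Anxa10 in 17 against 7.59, a ratio of 2.24 (1.30 to 3.58). Muc1 and Krt7, a ductal keratin that is 25.4-fold higher in B cells, were seen together in 109 A cells, a ratio of 1.69 (1.39 to 2.04). With Krt7 the ratio was 2.25 (1.61 to 3.05) for Vsig1 and 3.97 (2.78 to 5.50) for Anxa10, and the Pearson r of Anxa10 and Krt7 over thinned A cells was 0.16. The part of mixed droplets in these ratios was not tested.

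**Figure D4:**
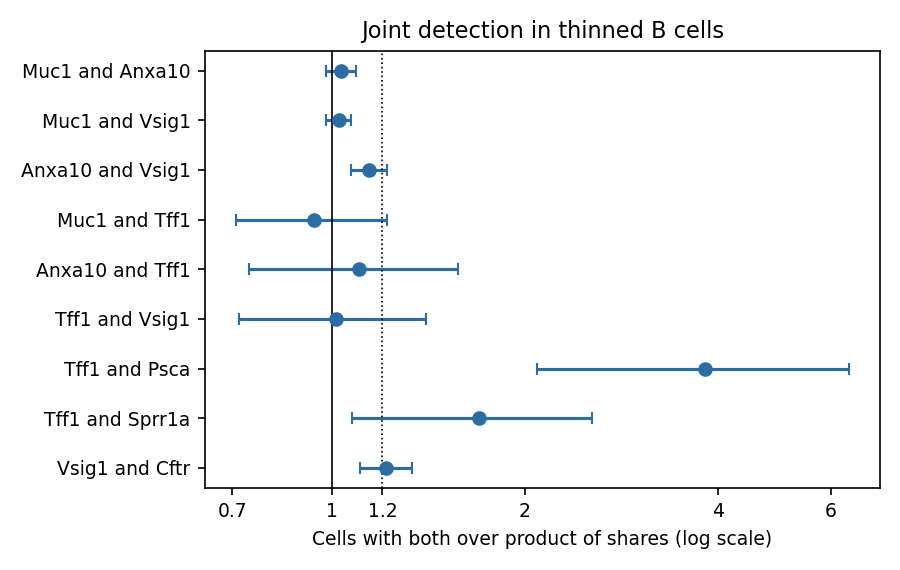
Number of thinned B cells with a UMI of both genes over the number given by the product of their shares, on a log axis with 95% Poisson intervals of the joint count. The solid line marks 1 and the dotted line 1.2. The 3 pairs of Muc1, Anxa10 and Vsig1 lie between 1.03 and 1.14, and Tff1 with Psca lies at 3.82. Tff1 and Psca were each seen in under 5% of these cells, so their pairs fall below the limit used for the 3 pairs.

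Tff1 was seen with Muc1, Anxa10 and Vsig1 about as often as its share gives. The ratio was 0.939 with Muc1 (0.709 to 1.22), 1.10 with Anxa10 (0.744 to 1.57) and 1.02 with Vsig1 (0.716 to 1.40). With Psca, in contrast, 14 cells held both genes where the shares give 3.66, a ratio of 3.82 (2.09 to 6.41). Tff1 was seen in 103 and Psca in 314 of the 8827 cells, both under the 5% limit. Pairs with Tff1 are therefore not covered by the share of all pairs past 1.2. With Sprr1a the ratio was 1.70 (1.08 to 2.55). Vsig1 was seen with Cftr, the chloride channel of ductal cells, in 449 cells against 369, a ratio of 1.22 (1.11 to 1.33), and less with Sprr1a, at 0.885 (0.796 to 0.981). Anxa10 stood at 1.14 with Cftr (1.02 to 1.27) and 1.13 with Sprr1a (1.01 to 1.26). Over thinned cells of the class in which a member was higher, 1 gene outside the class rules had a Pearson r of at least 0.15 with a member. It was Lgals2, an epithelial galectin, whose r with Vsig1 was 0.18 over 8827 cells. These cells share 1 library, and r is a description.

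Levels were also read in subsets of each class, defined by marker sums with the same limits of 2 UMIs and 3 times the other sum. In B cells, 541 cells were marked by Krt14 and Sprr1a and 4714 by Areg, Btc and Cftr. Tff1 was 63.5 CPM (55.3 to 72.5) in the former and 8.13 CPM (7.12 to 9.25) in the latter, or 7.81-fold higher (6.46 to 9.43). It was seen in 20 of the Krt14 and Sprr1a cells (3.70%, 2.27 to 5.65) and in 57 of the others (1.21%, 0.917 to 1.56). Poisson intervals treat UMIs as independent, and Tff1 UMIs were packed into few cells. The intervals of Tff1 levels and folds in B cells are therefore too narrow. Of the 10 B cells with the most Tff1, 5 were Krt14 and Sprr1a cells, and without these 10 cells the levels were 22.3 CPM (17.5 to 27.9) and 6.51 CPM (5.61 to 7.52). The difference thus kept its direction without them.

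The widely spread members changed little between these subsets, with median depths of 6097 and 5530.5 UMIs. Muc1 was 359 CPM against 302 CPM, 1.19-fold higher in Krt14 and Sprr1a cells (1.12 to 1.26). Anxa10 was 132 CPM against 106 CPM, 1.24-fold higher (1.12 to 1.37). Vsig1 was lower there, at 127 CPM against 156 CPM (0.813-fold, 0.735 to 0.897). Cldn18 had 8 and 71 UMIs in these subsets, 0.928-fold (0.386 to 1.93), so a difference was not detectable at this depth.

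**Figure D5:**
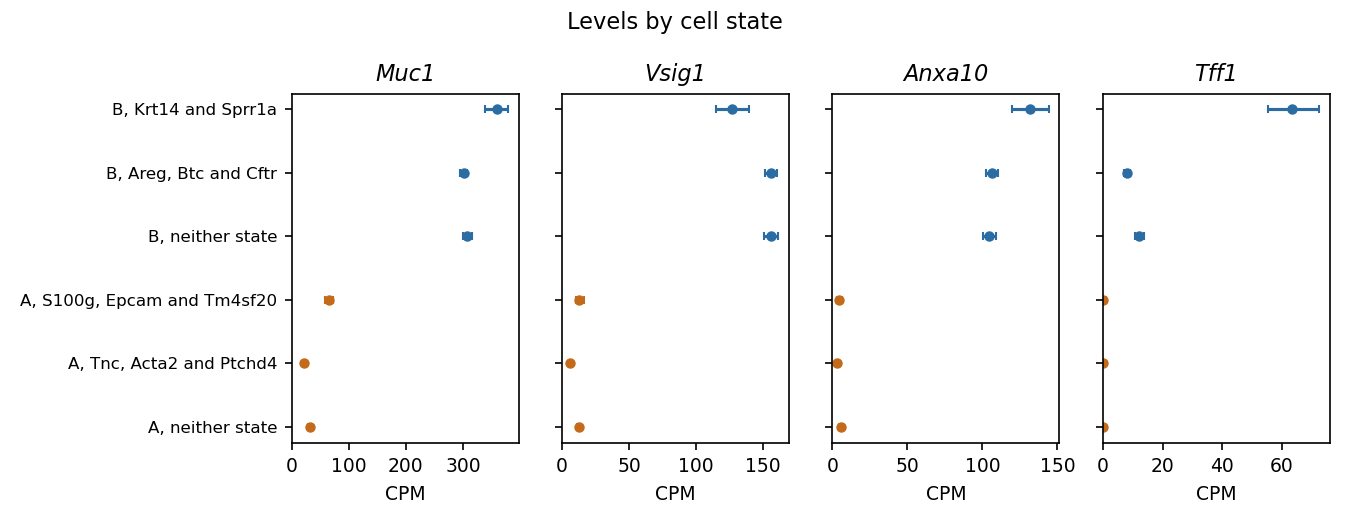
Level (CPM, linear axes) of Muc1, Vsig1, Anxa10 and Tff1 in 3 subsets of B cells (blue) and 3 of A cells (orange), with 95% Poisson intervals. Tff1 stands apart in B cells marked by Krt14 and Sprr1a (63.5 CPM), and Muc1 differs among the A subsets, with 64.5 CPM in cells marked by S100g, Epcam and Tm4sf20.

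In A cells, Muc1 varied more between subsets than in B cells. It was 64.5 CPM (58.0 to 71.5) in the 1142 A cells marked by S100g, Epcam and Tm4sf20, genes of epithelial cells, and 22.4 CPM (19.9 to 24.97) in the 2478 marked by Tnc, Acta2 and Ptchd4. The former was 2.89-fold higher (2.47 to 3.37), with a Muc1 UMI in 23.5% against 11.2% of cells, at the lower median depth of 4507 against 5155.5 UMIs. Vsig1 was 12.9 CPM against 6.12 CPM, 2.10-fold higher (1.52 to 2.91). Agr2 had 11 of its 15 A-cell UMIs in the epithelial-marked cells, in 8 cells, and 2 in the others, a ratio of 13.8-fold (3.01 to 128). Anxa10 was 4.47 CPM against 3.06 CPM (1.46-fold, 0.854 to 2.44). The summed level of the B-rule genes in the same cells was 11.6 CPM against 13.0 CPM and that of Krt7 42.2 CPM against 53.0 CPM. The intervals of the B-rule sum were 8.97 to 14.8 and 11.2 to 15.1 CPM. The part of carry-over from B cells in these levels was not tested.

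Cell cycle, depth and mitochondrial share were read by comparing the highest and the lowest quartile of each class. By the share of UMIs in 10 G2/M genes, Muc1 in B cells was 304 CPM in the highest and 321 CPM in the lowest quartile, and Vsig1 170.9 CPM against 149 CPM. Tff1 was 9.33 CPM (7.85 to 11.0) against 23.9 CPM (21.2 to 26.9), but it was seen in 37 cells of each quartile. Without the 10 highest Tff1 cells the levels were 7.86 CPM (6.51 to 9.42) and 8.50 CPM (6.91 to 10.3), so the difference rested on those cells. In A cells Muc1 was 26.1 CPM (23.1 to 29.3) in the highest and 43.3 CPM (39.0 to 48.0) in the lowest quartile, and Anxa10 was 2.55 CPM against 5.42 CPM, 2.12-fold higher (1.30 to 3.53) in the lowest. By depth, the share of B cells with a Muc1 UMI was 67.8% in the lowest and 88.6% in the highest quartile, while its level was 303 CPM and 308 CPM. Levels of other members moved with depth. Tff1 in B cells was 8.13 CPM in the lowest and 16.1 CPM in the highest quartile by depth, 1.98-fold higher (1.53 to 2.59), and 5.42 CPM (3.998 to 7.19) and 10.00 CPM (8.64 to 11.5) without the 10 highest Tff1 cells. Anxa10 in A cells was 2.92 CPM in the lowest and 6.40 CPM in the highest, 2.19-fold higher (1.33 to 3.7999). In the same quartiles of A cells the summed level of the B-rule genes went from 7.07 CPM to 18.6 CPM. Krt7 went from 30.1 CPM to 84.0 CPM, Muc1 from 33.6 CPM to 35.5 CPM and Vsig1 from 10.6 CPM to 13.5 CPM. The part of carry-over from B cells in the Anxa10 difference was not tested. In B cells Anxa10 went from 116 CPM to 98.4 CPM and Vsig1 from 174 CPM to 141 CPM. The part of depth in the differences between A and B cells was not tested beyond the thinned shares. By mitochondrial share, A cells had 43.7 CPM of Muc1 in the highest and 31.7 CPM in the lowest quartile, and 3.33 and 5.80 CPM of Anxa10. B cells had 305 and 307 CPM of Muc1, and 16.5 and 11.9 CPM of Tff1. The median mitochondrial share was 3.19% in A and 1.89% in B cells, and its part in their differences was not tested.

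Genes that build and export mucins were read beside the members. The counts of this and the other lists stand against 7.26% of all 8800 genes at least 2-fold higher in B cells and 10.3% in A cells. A gene that passes 10 CPM in only 1 class is favoured by that minimum. Of 26 genes of O-glycosylation, 12 reached 10 CPM, and 5 of these were at least 2-fold higher in B cells and 2 in A cells, with a median log2 ratio of 0.59. Galnt1, a transferase that starts mucin-type O-glycans, was 187.6 CPM in B and 55.2 CPM in A cells, 3.40-fold higher. Gcnt3, a mucin-type core-branching enzyme, was 20.0 CPM against 3.60 CPM (5.56-fold), passing only through B cells, and Gcnt1 49.4 CPM against 13.1 CPM (3.76-fold). Galnt3 and C1galt1 were the others higher in B cells, and Galnt2 (144 CPM in A, 63.0 CPM in B cells) and St3gal1 were the 2 higher in A cells. Galnt18, a further Galnt gene, is part of the A sum, so it is high in A cells by the rule. It was not among the 26 genes, and these counts leave it out. Galnt3, C1galt1 and St3gal1 are named after their values were seen. Of 16 genes of the secretory machinery, 9 reached 10 CPM, 1 was at least 2-fold higher in B cells and 0 in A cells. That gene was Kdelr3, a retrieval receptor of the endoplasmic reticulum, at 17.5 CPM against 3.28 CPM, which passed only through B cells. A count of 1 in 9 is near the share of all genes. Hspa5, the main chaperone there, was 790.4 CPM in B and 709 CPM in A cells, Sec61b, a translocon subunit, 336 CPM and 286 CPM, and Tmed3, a transport protein, 15.4 CPM and 8.42 CPM, passing only through B cells.

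Other genes of gastric cells were mostly at or near 0. Of 16 listed, 15 are in the matrix and 3 reached 10 CPM. Psca, passing only through B cells, was 15.3 CPM there and 0.397 CPM in A cells (38.4-fold), Sult1c2, a sulfotransferase, was 276 CPM in A and 11.4 CPM in B cells (24.3-fold higher in A), and the water channel Aqp5 was 238 CPM in B and 250.3 CPM in A cells. Gkn2, a secreted foveolar peptide, had 31 UMIs in B and 2 in A cells, and Gkn1 had 8 and 0. Muc6, the mucin of gastric glands, had 1 UMI in B and 0 in A cells. Gkn1, Gkn2 and Muc6 are named after their values were seen. Of 13 other mucin genes, 12 are in the matrix and 0 reached 10 CPM. Muc13 (2.91 CPM in A, 0.398 CPM in B cells) and Muc4 (1.42 CPM in A, 0.152 CPM in B cells) were the highest, both higher in A cells, by 7.30-fold and 9.34-fold. Their log2 ratios of B over A were -2.87 (-3.61 to -2.19) and -3.22 (-4.50 to -2.15). Among Muc1, Muc5ac and these 12 genes, only Muc1 reached 10 CPM in either class.

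Intestinal genes did not share one direction. Of 18 listed genes 5 reached 10 CPM, with Krt20 2.62-fold higher in B cells and Cdx2 and Vil1 2.82-fold and 2.96-fold higher in A cells, Vil1 passing only through A cells. Lgals4 was 787 CPM in B and 503 CPM in A cells, and Cdh17 151 CPM and 121 CPM. Tff3, the intestinal trefoil peptide, had 3 UMIs in B and 0 in A cells. Of 22 regulators of foregut and epithelial genes, 13 reached 10 CPM, 2 were at least 2-fold higher in B and 4 in A cells. Gata5, a GATA factor, was 21.8 CPM in B and 0.646 CPM in A cells (33.8-fold), passing only through B cells, and Klf4, a factor of differentiated epithelium, 80.95 CPM and 20.3 CPM (3.995-fold). Ehf, an epithelial ETS factor, was 34.9-fold higher in A cells, at 46.9 CPM against 1.35 CPM, passing only through A cells. Onecut2, the regulator with the highest level, was 302 CPM in A and 203 CPM in B cells. Hnf4g was 4.60-fold, Hnf4a 2.07-fold and Pdx1 2.26-fold higher in A cells. Klf4, Hnf4a, Pdx1, Krt20 and Tff3 are named after their values were seen.

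Genes of the classical and basal-like subtypes were read as lists. Of 17 other genes of the classical subtype 4 reached 10 CPM, with 1 at least 2-fold higher in B cells (Krt20) and 0 in A cells, and a median log2 ratio of 0.59. Krt20, Lgals4 and Cdh17 of these 4 are also in the intestinal list, so only Tspan8 adds to it. Tspan8, a tetraspanin, was 565 CPM in B and 391 CPM in A cells. Of 21 genes of the basal-like subtype 8 reached 10 CPM, with 5 at least 2-fold higher in B cells and 1 in A cells, and a median of 3.46. Of the 5, Fgfbp1 (48.3 CPM in B, 2.73 CPM in A cells), Tns4 (31.5 and 1.79 CPM) and Scel (11.1 and 0.745 CPM) passed only through B cells, which favours both the count and the median. Krt7 was 1358 CPM in B and 53.4 CPM in A cells, and Areg 424 CPM and 51.9 CPM. Dhrs9 was 3.30-fold higher in A cells, while Anxa8 (0.925-fold in B over A) and Slc2a1 (1.199-fold) were under 2-fold. The keratins Krt6a and Krt6b had 0 UMIs in both classes, and Krt17 had 1 UMI in B cells. Tns4, Scel, Dhrs9, Anxa8, Slc2a1 and these 3 keratins are named after their values were seen. Both lists were chosen with earlier results of these data known.

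Neighbouring genes on the chromosome were read by RefSeq order. Beside Muc1 on chromosome 3, Trim46 was 16.8 CPM in B and 13.0 CPM in A cells, Krtcap2 553 CPM and 451 CPM, and Thbs3 10.5 CPM and 11.1 CPM. Beside Vsig1 on chromosome X, Psmd10 was 43.7 CPM in B and 31.3 CPM in A cells, and Atg4a 35.8 CPM and 41.8 CPM. Beside Anxa10 on chromosome 8, Ddx60 had 7 UMIs in B and 54 in A cells, and Spock3 had 2 and 1. On chromosome 17, Tff1 lies beside Tff2 and Tff3, which had 2 and 3 UMIs in B cells against 702 of Tff1. Tmprss3, on its other side, had 2 UMIs in A and 0 in B cells. Gm15318 overlaps Tff1 and had 0 UMIs. On chromosome 12, beside Agr2, Agr3 had 0 UMIs, Tspan13 was 17.5 CPM in B and 13.9 CPM in A cells, and 9130015A21Rik, the third gene away on the side of Agr3, had 62 UMIs in B and 0 in A cells. Beyond Tspan13, Bzw2 was 123 CPM in B and 153 CPM in A cells, and Ankmy2 7.58 CPM and 12.3 CPM. On chromosome 9, beside Cldn18, Dzip1l was 23.4 CPM and 18.0 CPM, Sox14 on the other side had 0 UMIs, and A4gnt, beyond Dzip1l, had 1 UMI in B and 0 in A cells. On chromosome 7, Muc5ac lies between Muc2 (1 UMI) and Muc5b (0 UMIs).

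Markers of immune, endocrine, fibroblast and endothelial cells were close to 0 in both classes. The summed level was 1.37 CPM or less for 6 immune, 6 endocrine, 6 fibroblast and 5 endothelial genes. The acinar sum was 13.7 CPM in A and 4.38 CPM in B cells. Of 7 acinar genes 5 had no UMI, Prss2 was 10.0 CPM in A and 4.21 CPM in B cells, passing only through A cells, and Cela1 had 147 UMIs in A and 9 in B cells (21.4-fold higher in A). Among the other lists, the highest were Cd68 (41 UMIs in A, 31 in B cells), Lyz2 (9 and 1), Pdgfra (25 and 32), Col1a1 (9 and 11), Pecam1 (26 and 10), Cdh5 (12 and 32), Ins2 (2 and 3) and Ppy (1 and 0). Ptprc, the marker of leukocytes named after its values were seen, had 4 and 2 UMIs. Of the 10 G2/M genes, Top2a was 661 CPM in A and 603 CPM in B cells, Mki67 444 and 275 CPM, and Plk1 106 and 61.6 CPM.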

How the data were processed

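Single-cell expression of 1 pooled library was analysed. Per the labels, it was made with the 10x Chromium 3′ v4 chemistry. The deposited values are whole-number UMI counts per gene and barcode, not normalized. Per the submitters' processing notes they used Cell Ranger 8.0.1 and GRCm39. The annotation and any filter on barcodes are not given in the sources used here. Counts were summed over A or B cells and divided by the summed totals to give CPM. Ratios of B over A have exact conditional intervals at 95%, and a level of 0 was bounded by 3 counts over the group. No p-value was computed, since cells of 1 library are not replicates. For detection shares and pairs each cell was thinned once to 3000 UMIs, which left out 410 A and 109 B cells that were shallower. Doublets were marked with Scrublet (scanpy 1.11.5, expected rate 0.08) in 778 of 21361 cells (3.64%) and kept in the main values. The tools were numpy 2.4.6, pandas 2.3.3 and scipy 1.17.1. The counting, thinning and joint-detection steps were tested on simulated data.

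The 8 genes, the marker sums and all gene lists were chosen with earlier results of these data known. From each list the text names the 2 genes with the highest CPM and the 2 with the largest ratio among those with at least 10 CPM, chromosomal neighbours and marker sums aside, and other names are stated as chosen after their values were seen. Genes most like a member were named where Pearson r of ln(1 + UMI), over cells of the class with its higher level, was at least 0.15. The r given in A cells for Anxa10 lies outside that rule. Alternatives were other cell filters, a stricter class rule, Ctse left out of the B sum, doublets or the highest Tff1 cells removed, other scalings, other CPM minimums and other thinning depths.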

Additional observations from a re-analysis of the deposited data

How the results depend on the processing

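With 1 library, cells cannot stand for cultures, and the intervals leave out any spread between them. No paired analysis was possible because the files hold 1 library and the result comes from no test. Genes under 10 CPM (Agr2, Cldn18, Muc5ac and Tff2) rest on 118 UMIs or fewer in either class, which limits their ratios. The number of A cells, 7816, was 7993 under a loose cell filter, 3312 under a strict one, 3074 under a stricter class rule (5 UMIs and 10 times the other sum) and 7670 without marked doublets. The number of B cells, 8936, was 5535 under the strict filter, 4788 under the stricter rule, 8611 without Ctse in the sum and 8728 without doublets. Requiring the other sum to be 0, an alternative chosen after seeing the data, left 7377 A and 8553 B cells. With no CPM minimum 1 gene, Agr2, was at least 2-fold higher in A cells. The genes at least 2-fold higher in B cells numbered 3 at a minimum of 50 CPM, 3 without the 10 B cells with the most Tff1 UMIs (an alternative also chosen after seeing the data), 6 with no minimum and 4 in the other alternatives. Over 69 ratios from the 10 settings that can change a ratio, 55 moved by less than counting error, 14 moved further and 0 reversed. The log2 ratio of B over A ranged from 3.20 to 3.40 for Muc1, 3.69 to 4.29 for Vsig1, 4.27 to 5.25 for Anxa10 and 6.45 to 8.41 for Tff1. It ranged from 2.82 to 4.42 for Cldn18, 1.35 to 2.65 for Muc5ac (against 3 counts in A cells) and -5.05 to -4.09 for Agr2. Without Ctse in the sum Agr2 had 0 UMIs in B cells and its value, -2.66, is a bound against 3 counts, and under the stricter rule (3 UMIs in A, 0 in B cells) it had no ratio and is not among the 69. Centring on the median of all genes raised every ratio by 0.17. No pair of Muc1, Anxa10 and Vsig1 reached a joint-detection ratio of 1.2 under any of the 5 alternatives run.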
